A study of Mus musculus with 12 samples.

Results

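The cytosolic ribosomal protein genes described here are the genes whose symbol has the form *Rpl*, *Rps* or *Rplp* with a number, together with *Rpsa*, and which own at least 1 probeset that the array's annotation gives to a single gene. Ribosomal S6 kinases and pseudogene symbols ending in -ps were left out. The rule, which uses names and no measured value of a response, took 49 of 18193 genes and 105 of 45037 probesets. They were 21 small subunit genes, 20 large subunit genes, 2 genes of the stalk (*Rplp0* and *Rplp2*), and 6 paralogues or relatives (*Rpl22l1*, *Rps4l*, *Rpl7l1*, *Rps27l*, *Rpl3l* and *Rpl39l*). Of these, 48 are protein coding in the mouse assembly, and *Rps4l* is listed there as a transcribed pseudogene. A further 37 of the 85 protein coding ribosomal protein symbols in the assembly, among them *Rpl5*, *Rpl23*, *Rplp1* and *Rps27a*, had no probeset of their own and were not analysed here.

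The study asked how the liver's transcripts respond to stress of the endoplasmic reticulum (ER) when ATF6α, a transcription factor of the unfolded protein response (UPR), is missing. Tunicamycin (TM), which blocks N-linked glycosylation and so makes proteins misfold in the ER, was given at 2 mg/kg by intraperitoneal injection, and livers were taken after 8 h. The groups were *Atf6a*-/- mice given TM, *Atf6a*-/- mice given vehicle (dextrose), wild-type (*Atf6a*+/+) mice given TM and wild-type mice given vehicle, with 3 animals in each and 1 array per animal. The mice were of mixed age and gender, all had been fasted before sacrifice, and RNA came from homogenised whole liver. The deletion is carried by every cell of the animal, and the age and strain background of each mouse were not given in the sources used here. Values are log2 signals, so that a difference of 1 is a doubling, and each gene is represented by its brightest probeset. A gene was called when its adjusted p from limma was below 0.05 and its change exceeded 1.5-fold.

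Each ribosome has a small subunit, which reads the mRNA, and a large subunit, which joins amino acids, and both are built in the nucleolus from ribosomal RNA and, for nearly every ribosomal protein, a single copy. Ribosomal protein mRNAs are among the most abundant of the cell, and in vertebrates most begin with a C followed by a run of pyrimidines, the terminal oligopyrimidine (TOP) tract, through which the kinase complex mTORC1 and the RNA-binding protein LARP1 set their translation. ER stress lowers translation through phosphorylation of the initiation factor eIF2α, and the arrays used here measure mRNA level and not translation.

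The start sites show how the TOP tract appears in the genome, and they are shown because it is the sequence feature that the family is known for. RefSeq transcription starts (assembly GRCm38.p6) were available for 43 of the 49 genes. The run sought was a C at the first transcribed base, then at least 4 bases each C or T, on the gene's own strand. It stood at an annotated start of 8 of these 43 genes (18.6%), against 813 of 27025 genes with a start (3.01%). A gene with several annotated starts was counted if any of them carried the run. Such a run beginning within 5 bases of a start was found for 20 of the 43 genes (46.5%), against 5718 of 27025 (21.2%). The 8 starts with the run at the first base are printed below with 15 bases before the start and 15 from it onward, read 5′ to 3′ on the gene's strand, with the C and the pyrimidines that follow in capitals. They lay at chr2:39005117-39005146 (minus strand, *Rpl35*), chr3:90213634-90213663 (minus, *Rps27*), chr4:86857353-86857382 (minus, *Rps6*), chr7:141447636-141447665 (plus, *Rplp2*), chr9:120571502-120571531 (plus, *Rpl14*), chr11:114668565-114668594 (plus, *Rpl38*), chr17:27635230-27635259 (minus, *Rps10*) and chr17:33955651-33955680 (minus, *Rps18*).
Rpl35: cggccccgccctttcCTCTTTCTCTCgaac
Rps27: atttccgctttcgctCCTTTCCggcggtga
Rps6: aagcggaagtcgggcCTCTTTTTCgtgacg
Rplp2: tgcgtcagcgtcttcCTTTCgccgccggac
Rpl14: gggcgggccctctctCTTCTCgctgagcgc
Rpl38: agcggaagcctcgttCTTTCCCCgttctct
Rps10: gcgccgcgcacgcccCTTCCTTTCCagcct
Rps18: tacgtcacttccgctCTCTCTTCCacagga

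Of the 5 genes called with TM, the 4 with a start in the table did not carry the run at the first base, and their starts are printed for comparison in the same way, with the same meaning of capitals. *Rpl12* (chr2:32961697-32961726, plus strand) had it 2 bases after the annotated start, and *Rpl22l1* (chr3:28805493-28805522, plus) 3 bases after it. *Rps25* (chr9:44407699-44407728, plus) and *Rpl7l1* (chr17:46782642-46782671, minus) had none within 5 bases, and their windows are in lower case throughout. An annotated start is a single base chosen by the annotation, and starts in liver were not measured here.
Rpl12: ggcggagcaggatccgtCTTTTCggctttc
Rpl22l1: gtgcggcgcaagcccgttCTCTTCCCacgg
Rps25: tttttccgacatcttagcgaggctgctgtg
Rpl7l1: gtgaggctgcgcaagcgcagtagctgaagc

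Hepatocyte markers averaged 13.7 to 14.0 on the log2 scale on every array, as the liver label requires. None of the 11 measured had a mean over all arrays below the median of the array medians. The UPR genes used as a check rose: *Hspa5*, the main ER chaperone, had a log2 fold change of 1.45 in *Atf6a*-/- and 1.88 in wild-type livers, and *Ddit3*, which encodes CHOP, 6.13 and 6.79. The 3 *Atf6* probesets were lower in *Atf6a*-/- than in wild-type livers under vehicle by log2 values of -1.71, -0.77 and -1.09 (limma adjusted p of 0.18, 1.00 and 0.18) and rose with TM in both genotypes. Whether they lie in the deleted part of the gene is not given in the sources used here, so they do not check the genotype labels. Signals that read Y-linked transcripts were present on 4 arrays, 1 in each group.

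Few ribosomal protein genes were called with TM in either genotype, and none was called lower. In *Atf6a*-/- livers 5 of 49 were called higher (10.2%), *Rpl12*, *Rpl22l1*, *Rps25*, *Rps4l* and *Rpl7l1*, where 13.1% of all 18193 genes were called higher. In wild-type livers 2 of 49 were called higher (4.08%), *Rpl12* and *Rps25*, where 8.92% of all genes were. None was called lower in *Atf6a*-/- livers, where 8.21% of all genes were, and none in wild-type livers, where 6.9% were. By unadjusted p below 0.05 limma also placed 0 of the 49 lower in both genotypes, and so did the t-test that the study's methods name. These shares differ from the background by a few genes, and their order against it changed with the call rule and with the probesets used, as given below.

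Most changes were small and positive. The median log2 fold change of the 49 genes was 0.17 in *Atf6a*-/- livers and 0.08 in wild-type livers, while the medians of all genes were -0.10 and -0.06. A positive value was found for 43 of 49 genes in *Atf6a*-/- and 34 of 49 in wild-type livers. Without the fold limit, 11 of 49 passed an adjusted p of 0.05 in the upward direction in *Atf6a*-/- livers (22.4%, against 17.6% of all genes), and 5 of 49 in wild-type livers (10.2%, against 12.1%). The TM and vehicle arrays did not overlap, with TM higher, for 19 of 49 genes in *Atf6a*-/- livers (38.8%, against 20.8% of all genes) and for 13 of 49 in wild-type livers (26.5%, against 16.8%). In whole-liver RNA, fewer cells of a type and less RNA per cell cannot be told apart. A permutation test on 3 animals against 3 cannot give an exact p below 0.1, so the p-values printed here are limma's, which pools the spread of all probesets.

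**Figure D1:**
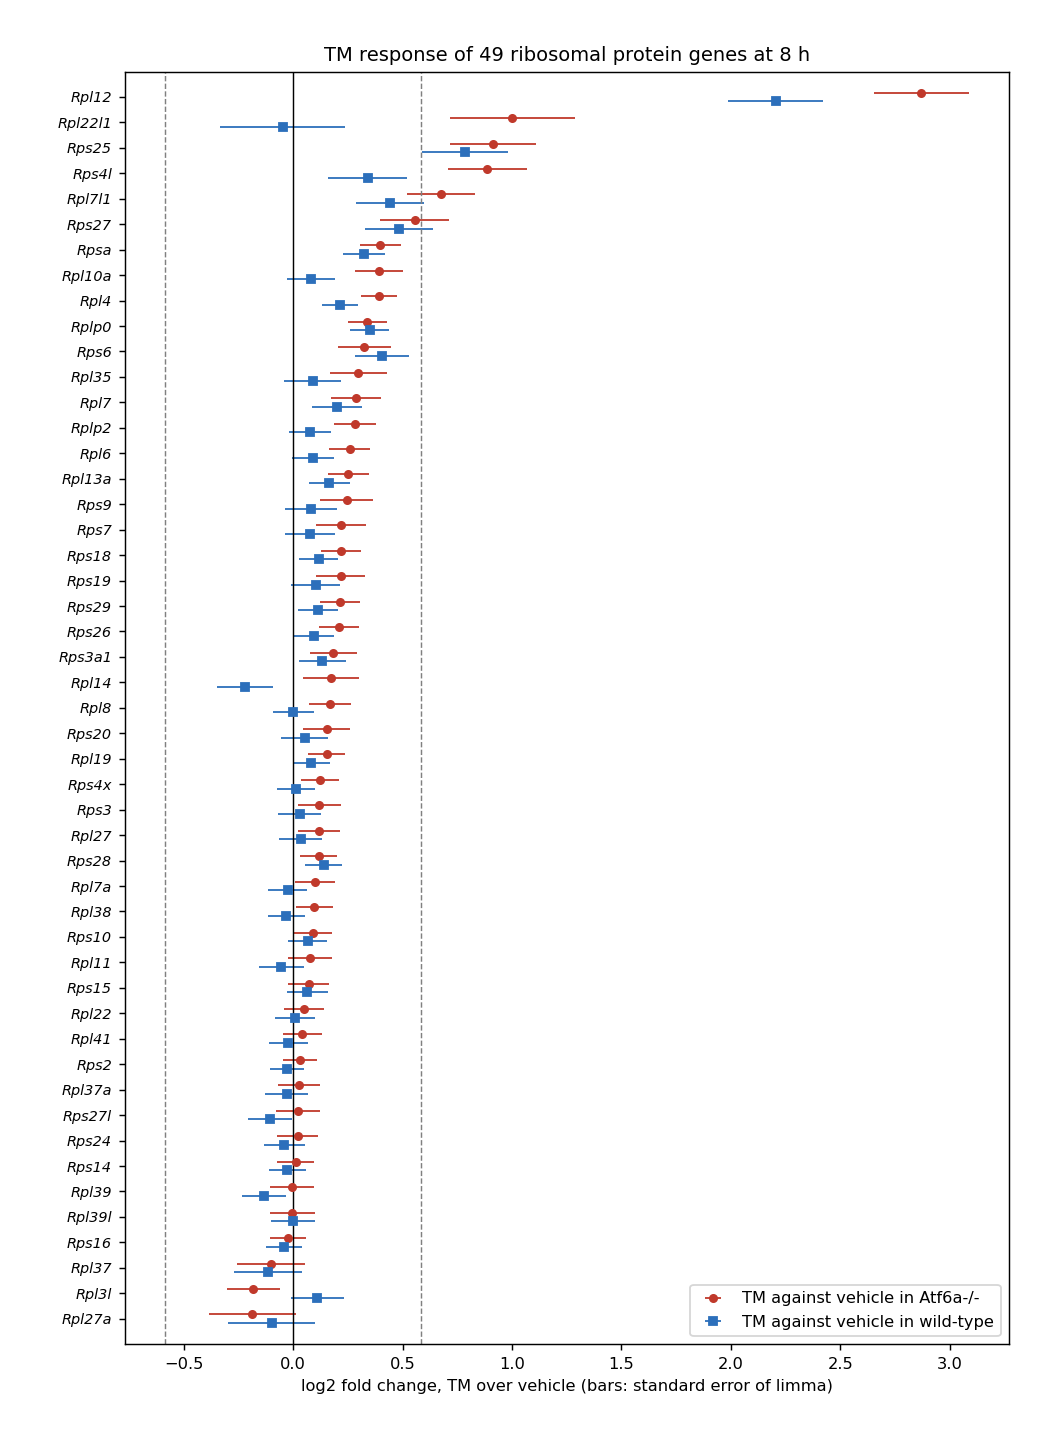
Log2 fold change of TM over vehicle (x axis) for each of the 49 ribosomal protein genes (y axis), with *Atf6a*-/- in red circles and wild-type in blue squares, bars giving limma's standard error and dashed lines marking 1.5-fold. *Rpl12* stands at 2.87 and 2.20, 5 genes in *Atf6a*-/- and 2 in wild-type lie right of the dashed line, and most of the rest lie within 0.4 of 0.

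*Rpl12*, a large subunit protein at the base of the stalk, had the highest log2 fold change of the 49 in both genotypes. Its only probeset (gene at chr2:32961712-32964045, GRCm38.p6) read 7.71, 7.73 and 8.38 in *Atf6a*-/- TM livers, against 5.24, 5.10 and 4.87 in *Atf6a*-/- vehicle livers. In wild-type livers it read 7.58, 7.23 and 7.43 with TM, against 4.88, 5.69 and 5.06 with vehicle. All 6 TM arrays lay above all 6 vehicle arrays, by more than 1 log2 unit. The log2 fold change was 2.87 in *Atf6a*-/- livers (SE 0.22, limma adjusted p = 2.03e-06) and 2.20 in wild-type livers (SE 0.22, adjusted p = 1.89e-05), and it passed the test under every alternative run in both genotypes. The vehicle means, 5.07 in *Atf6a*-/- and 5.21 in wild-type livers, lay close to 5.05, the median of all probesets, so they are not shown to be above background and the size of the change is that of the measured signal.

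Among the 21 small subunit genes, 1 was called in each genotype, *Rps25*, whose protein sits near the mRNA and tRNA path of the small subunit and serves initiation at viral internal entry sites. *Rps25* (gene at chr9:44407714-44410406) read 7.01, 7.26 and 7.78 in *Atf6a*-/- TM livers, against 6.40, 6.37 and 6.54 in *Atf6a*-/- vehicle livers. In wild-type livers it read 7.07, 7.24 and 6.71 with TM, against 6.07, 6.52 and 6.06 with vehicle. The TM and vehicle arrays were separate in each genotype, though by little in wild-type. The log2 fold change was 0.91 in *Atf6a*-/- (SE 0.19, 1.88-fold, limma adjusted p = 0.00377) and 0.79 in wild-type (1.72-fold, adjusted p = 0.0133). The wild-type call was lost in 4 alternatives. Among them were those without wild-type vehicle replicate 1, wild-type vehicle replicate 3 or wild-type TM replicate 2 (limma adjusted p of 0.0539 to 0.0638).

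*Rpsa*, a small subunit protein also known as a laminin receptor, rose in both genotypes by less than 1.5-fold. It read 12.61, 12.68 and 12.85 in *Atf6a*-/- TM livers, against 12.34, 12.27 and 12.34 in *Atf6a*-/- vehicle livers, and 12.61, 12.72 and 12.46 in wild-type TM livers, against 12.31, 12.29 and 12.21 in wild-type vehicle livers. The groups did not overlap in either genotype, and the log2 fold changes were 0.40 (limma adjusted p = 0.00752) and 0.32 (adjusted p = 0.032). The wild-type value no longer passed in 10 of 27 alternatives, 5 of which left out 1 wild-type array (adjusted p of 0.0550 to 0.128). *Rps27*, a zinc finger protein of the small subunit, passed in *Atf6a*-/- livers at 0.56 (limma adjusted p = 0.0191) and stood at 0.48 in wild-type livers (adjusted p = 0.0507). Its *Atf6a*-/- value was lost in 4 alternatives. *Rps6*, the small subunit protein that S6 kinases phosphorylate downstream of mTORC1, had a log2 fold change of 0.33 in *Atf6a*-/- livers (adjusted p = 0.0667) and passed in wild-type livers at 0.41 (adjusted p = 0.0362). That wild-type value was lost in 13 of 27 alternatives, among them quantile normalization (adjusted p = 0.119) and leaving out wild-type TM replicate 2 (adjusted p = 0.152). *Rps18* had log2 fold changes of 0.22 and 0.12 and passed in neither genotype. The median over the 21 genes was 0.18 in *Atf6a*-/- and 0.08 in wild-type livers, and 3 in each genotype passed the adjusted p without the fold limit.

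Of the 20 large subunit genes *Rpl12* alone was called, and *Rpl4* and *Rpl10a* passed the adjusted p without the fold limit, in *Atf6a*-/- livers. *Rpl4*, a core protein that lines the exit tunnel, read 13.61, 13.61 and 13.75 in *Atf6a*-/- TM livers, against 13.24, 13.25 and 13.31 in *Atf6a*-/- vehicle livers. The change was only 0.39 (SE 0.08, limma adjusted p = 0.0034), but the groups were well separated and it passed under every alternative run. In wild-type livers *Rpl4* read 13.48, 13.54 and 13.41 with TM, against 13.22, 13.24 and 13.34 with vehicle, a difference of 0.21 (adjusted p = 0.103). *Rpl10a*, a protein of the L1 stalk, changed by 0.39 in *Atf6a*-/- livers (limma adjusted p = 0.0187) and by 0.08 in wild-type livers (adjusted p = 0.707). Its *Atf6a*-/- result was lost in 6 alternatives, among them those without *Atf6a*-/- vehicle replicate 1, *Atf6a*-/- vehicle replicate 2 or *Atf6a*-/- TM replicate 3.

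Other large subunit genes with a known role outside the ribosome did not pass on their brightest probesets. *Rpl11*, whose protein binds MDM2 when ribosome assembly fails, had log2 fold changes of 0.08 in *Atf6a*-/- and -0.05 in wild-type livers (limma adjusted p of 0.602 and 0.799). *Rpl13a*, known for silencing translation of inflammatory mRNAs when it leaves the ribosome, stood at 0.25 and 0.17 (adjusted p of 0.0655 and 0.286). The lowest values in the subunit were -0.19 and -0.10 for *Rpl27a*, -0.10 and -0.11 for *Rpl37*, and 0.17 and -0.22 for *Rpl14*, none of which passed. *Rpl39* had -0.13 in wild-type livers (adjusted p = 0.45). *Rpl37a*, the brightest member, read 13.56, 13.76 and 13.89 in *Atf6a*-/- TM livers, against 13.68, 13.69 and 13.75 in *Atf6a*-/- vehicle livers, with overlapping groups and a log2 fold change of 0.03. The median over the 20 genes was 0.14 in *Atf6a*-/- and 0.005 in wild-type livers.

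The 2 stalk genes passed with small changes in *Atf6a*-/- livers, and *Rplp0* passed in both genotypes. *Rplp0*, which anchors the stalk that recruits elongation factors and is often used as a reference transcript, read 13.25, 13.39 and 13.54 in *Atf6a*-/- TM livers, against 13.03, 13.02 and 13.12 in *Atf6a*-/- vehicle livers. In wild-type livers it read 13.30, 13.37 and 13.37 with TM, against 12.99, 12.98 and 13.02 with vehicle. Both genotypes were free of overlap, with log2 fold changes of 0.34 (SE 0.09, limma adjusted p = 0.0125) and 0.35 (adjusted p = 0.0148). The *Atf6a*-/- value no longer passed in 4 alternatives, among them that without *Atf6a*-/- TM replicate 3 (limma adjusted p = 0.0567). The wild-type value was lost in 3, among them that without wild-type TM replicate 2 (0.0511). *Rplp2*, an acidic protein of the stalk's arm, had 0.28 in *Atf6a*-/- livers (adjusted p = 0.0427) and 0.08 in wild-type livers (adjusted p = 0.667), and its *Atf6a*-/- value was lost in 12 of the alternatives run.

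The paralogues and relatives held 3 of the 5 calls in *Atf6a*-/- livers and none in wild-type livers, where limma's unadjusted p fell below 0.05 for 1 of the 6. *Rps4l* (gene at chr6:148354656-148355596), a relative of *Rps4x*, read 10.08, 10.39 and 10.28 in *Atf6a*-/- TM livers, against 9.60, 8.95 and 9.54 in *Atf6a*-/- vehicle livers. In wild-type livers it read 10.02, 9.91 and 9.58 with TM, against 9.29, 9.48 and 9.72 with vehicle. The *Atf6a*-/- groups were apart and the wild-type groups overlapped, with log2 fold changes of 0.89 (SE 0.18, 1.85-fold, limma adjusted p = 0.00274) and 0.34 (adjusted p = 0.248). *Rpl7l1* (gene at chr17:46773907-46782656), a relative of *Rpl7*, read 9.88, 9.91 and 9.99 in *Atf6a*-/- TM livers, against 9.32, 9.11 and 9.32 in *Atf6a*-/- vehicle livers. Its wild-type arrays read 9.96, 9.77 and 9.60 with TM, against 9.16, 9.74 and 9.11 with vehicle. Again only the *Atf6a*-/- groups were free of overlap, and the log2 fold changes were 0.68 (1.60-fold, adjusted p = 0.00594) and 0.44 (adjusted p = 0.0713). A second *Rpl7l1* probeset gave 0.70 and 0.42 and another gave -0.09 and -0.06, and with the mean of all its probesets the *Atf6a*-/- call was lost (0.43, adjusted p = 0.114).

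*Rpl22l1* (gene at chr3:28805508-28807424), whose protein can take the place of the large subunit protein Rpl22, spread more widely among animals than other bright members. It read 11.27, 11.52 and 12.34 in *Atf6a*-/- TM livers, against 10.21, 10.64 and 11.28 in *Atf6a*-/- vehicle livers. Wild-type arrays read 11.55, 11.37 and 11.41 with TM, against 11.49, 11.18 and 11.81 with vehicle. The *Atf6a*-/- groups met at their edges, the wild-type groups overlapped, and the lowest 2 of all 12 arrays were *Atf6a*-/- vehicle arrays. The log2 fold change was 1.00 in *Atf6a*-/- livers (SE 0.29, 2.00-fold, limma adjusted p = 0.0202) and -0.05 in wild-type livers (adjusted p = 0.945). The call was lost in 6 alternatives, among them those without *Atf6a*-/- vehicle replicate 1 (adjusted p = 0.0898), *Atf6a*-/- vehicle replicate 2 (0.0634) or *Atf6a*-/- TM replicate 3 (0.0843). *Rpl22* itself did not pass in either genotype. *Rps27l*, a p53 target in cultured human cells, had log2 fold changes of 0.02 and -0.11, *Rpl39l*, known from testis, 0.00 and 0.00, and *Rpl3l*, known from striated muscle, -0.18 and 0.11, with none passing.

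**Figure D2:**
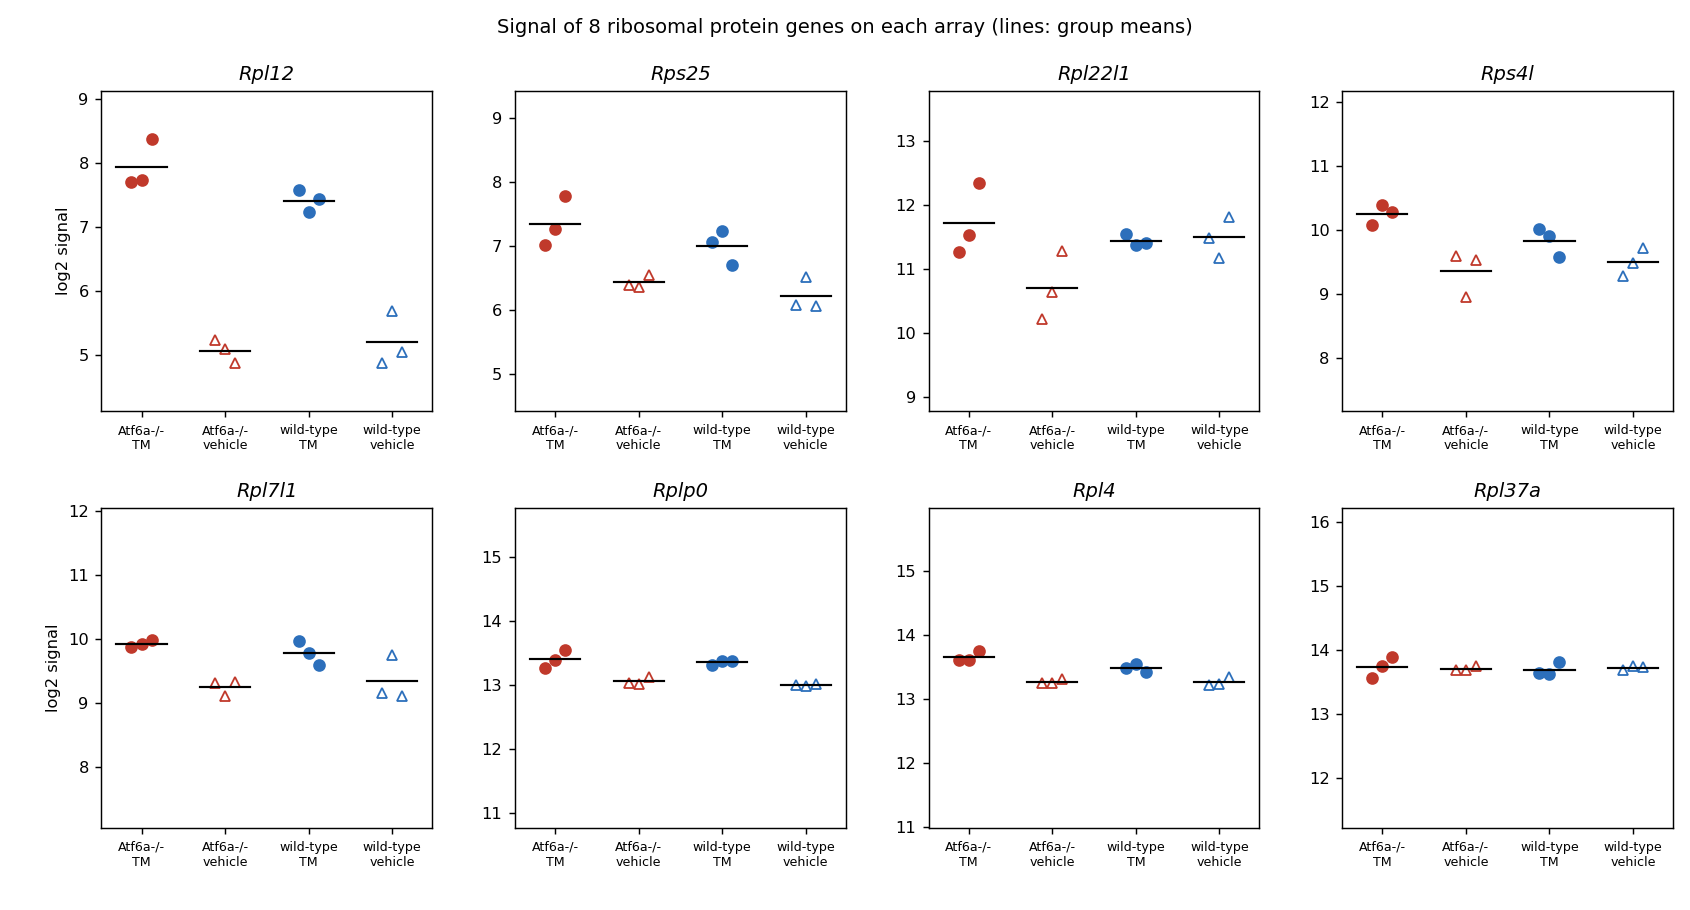
Log2 signal (y axis) on each of the 12 arrays for 8 ribosomal protein genes, by group (x axis), with a line at each group's mean and axes of equal span. *Rpl12* separates TM from vehicle in both genotypes, *Rpl22l1* has its lowest arrays at 10.21 and 10.64 in *Atf6a*-/- vehicle livers, and *Rpl37a* stays between 13.56 and 13.89.

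Most called members were on dimmer probesets. Signal differs between probesets for reasons other than transcript abundance, so no gene's level is set against another's here, and the split at a mean of 11 was chosen after the values were seen. The mean signals of the 49 genes ran from 3.30 (*Rps16*) to 13.71 (*Rpl37a*), and 28 of them lay above 12.6, the 99th percentile of all probesets. Of the 36 genes with a mean above 11, 1 was called higher in *Atf6a*-/- livers (*Rpl22l1*), against 14.6% of the 1037 genes above 11, and none in wild-type livers, against 14.6%. In wild-type livers limma's unadjusted p was below 0.05 for 3 of the 36, and all 36 had a positive value in *Atf6a*-/- livers, with medians of 0.16 and 0.07 in the 2 genotypes. Of the 13 genes below 11, 4 were called in *Atf6a*-/- livers (30.8%, against 13% of the 17156 genes below 11) and 2 in wild-type livers (15.4%, against 8.58%).

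Probesets of one gene often gave different values. Of all 105 probesets, 12 were called higher in *Atf6a*-/- livers, where 10.6% of all probesets were, and 4 in wild-type livers, where 7.1% were. All but 1 of these in *Atf6a*-/- and all 4 in wild-type livers were among the 41 probesets with a mean below 11. For 5 genes in *Atf6a*-/- livers (*Rps9*, *Rpl41*, *Rps3*, *Rps24* and *Rpl13a*) and 2 in wild-type livers (*Rps9* and *Rpl13a*) a dimmer probeset was called although the brightest was not. These were named after their values were seen. A single probeset of the 105 fell at adjusted p below 0.05, a dim one of *Rpl27a* in *Atf6a*-/- livers (log2 fold change -0.30, limma adjusted p = 0.038).

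For *Rps9*, a small subunit protein that guards decoding accuracy in yeast and bacteria, the dim probeset read 6.04, 6.03 and 6.92 in *Atf6a*-/- TM livers, against 5.10, 4.95 and 5.17 in *Atf6a*-/- vehicle livers. In wild-type livers it read 6.25, 5.49 and 5.87 with TM, against 4.81, 5.07 and 5.24 with vehicle. Both genotypes were separate, with log2 fold changes of 1.26 (limma adjusted p = 0.00155) and 0.83 (adjusted p = 0.0274), while the brightest *Rps9* probeset gave 0.24 and 0.08. For *Rpl13a* the dimmer probeset read 10.15, 10.06 and 10.60 in *Atf6a*-/- TM livers, against 9.59, 9.55 and 9.83 in *Atf6a*-/- vehicle livers, and 10.18, 10.45 and 10.44 in wild-type TM livers, against 9.81, 9.56 and 9.80 in wild-type vehicle livers. These arrays too were free of overlap, with 0.61 (adjusted p = 0.00756) and 0.63 (adjusted p = 0.00848). In *Atf6a*-/- livers dim probesets of *Rpl41* gave 1.01 and 0.73 where the brightest gave 0.04, one of *Rps3* gave 0.79 against 0.12, and one of *Rps24* gave 0.62 against 0.02. Which part of a transcript, or which spliced or unspliced form, each probeset reads was not analysed here.

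**Figure D3:**
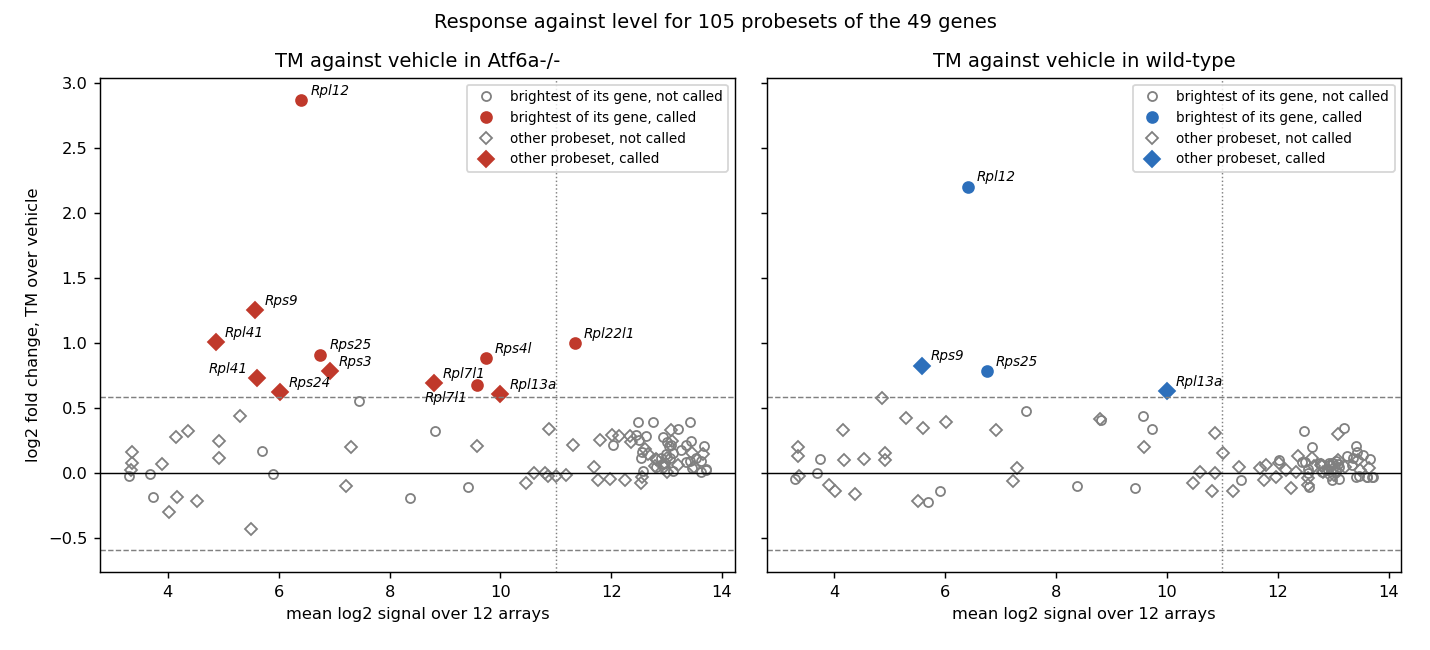
Log2 fold change of TM over vehicle (y axis) against mean log2 signal over the 12 arrays (x axis) for the 105 probesets, with *Atf6a*-/- on the left and wild-type on the right; filled symbols are called, circles are the brightest probeset of a gene, diamonds are the others, and the dotted line marks a mean of 11. All called probesets but that of *Rpl22l1* lie left of the dotted line.

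Probesets with an _s_at, _x_at or _a_at ending can read several transcripts, and 34 of the 105 had none of these endings. Without them 26 genes were left, the medians were 0.33 in *Atf6a*-/- and 0.24 in wild-type livers, and 8 of the 26 were called in *Atf6a*-/- livers (30.8%, against 12.3% of all 16591 genes on such probesets) and 3 in wild-type livers (11.5%, against 8.47%). A separate 110 probesets name a ribosomal protein gene along with other genes and were not assigned to a member. Of these 110, 6 were called higher in *Atf6a*-/- livers, where 10.6% of all probesets were, and 1 in wild-type livers, where 7.1% were. None was called lower. Without the fold limit, 14 were higher and 2 lower at adjusted p below 0.05 in *Atf6a*-/- livers, and 2 higher and 2 lower in wild-type livers. The medians of the 110 were 0.15 and 0.04. *Fau*, which encodes ribosomal protein S30 fused to a ubiquitin-like protein and is outside the naming rule, had -0.01 and -0.06 (limma adjusted p of 0.931 and 0.752).

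None of the genes with the TOP run at the annotated start was called, but too few genes were called for this to set the run apart. The 8 genes with it had a median log2 fold change of 0.25 in *Atf6a*-/- livers, with none called and 2 below an adjusted p of 0.05, and of 0.08 in wild-type livers. The 12 genes with such a run only nearby had 0.13 and -0.03, with 2 called in *Atf6a*-/- livers, and the 23 genes with none had 0.12 and 0.08, also with 2 called. The 8 genes with the run at the first base ranged in *Atf6a*-/- livers between 0.09 and 0.56, the last being *Rps27*. These are descriptions of small sets, without a test between them.

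Factors that build ribosomes were called far more often than the ribosomal proteins themselves, on the brightest probeset of each gene. The 2 lists were not matched for signal level. A split at a mean of 11 was chosen after the values were seen. Of the ribosomal protein genes with a mean below 11, 30.8% were called higher in *Atf6a*-/- and 15.4% in wild-type livers. Of the 36 above 11, 1 and 0 were. Of all genes below 11 the shares were 13% and 8.58%, and of those above 11 they were 14.6% in both genotypes. At any level, 13.1% and 8.92% of all genes were called higher. Of 36 measured assembly factors on a list of 37, 33 were called higher and none lower in *Atf6a*-/- livers (median log2 fold change 1.37), and 27 higher and none lower in wild-type livers (median 0.83), where by limma's unadjusted p 1 was lower. *Ltv1*, an assembly factor of the small subunit, read 11.10, 10.87 and 11.31 in *Atf6a*-/- TM livers, against 9.19, 9.19 and 9.18 in *Atf6a*-/- vehicle livers. Its wild-type arrays read 10.77, 10.79 and 10.65 with TM, against 9.10, 9.34 and 9.22 with vehicle, so that every TM array was above every vehicle array by over 1 unit. Log2 fold changes were 1.91 (limma adjusted p = 3.99e-07) and 1.52 (adjusted p = 2.08e-06). *Nip7*, which takes part in ribosomal RNA processing, had 2.64 in *Atf6a*-/- livers, and *Nop58*, a core protein of the box C/D particles that methylate ribosomal RNA, had 2.65 in wild-type livers.

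Translation factors lay between the 2 groups. Over all genes, 13.1% were called higher and 8.21% lower in *Atf6a*-/- livers, and 8.92% and 6.9% in wild-type livers. Of 28 measured initiation factor genes outside the list of TOP mRNAs given next (33 listed), 14 were called higher in *Atf6a*-/- and 11 in wild-type livers. Their medians were 0.57 and 0.40, and none was called lower in either, though limma's unadjusted p placed 1 lower in each. The 1 in wild-type livers also passed the adjusted p and missed only the fold limit. Their own starts were not checked for a TOP tract. *Eif1a*, which helps the small subunit scan, had 2.30 and 1.93, *Eif3d* 1.49 in *Atf6a*-/- livers and *Eif3c* 0.94 in wild-type livers. Of 16 measured other mRNAs known for a TOP tract (18 listed), such as elongation factors, 2 were called higher in each genotype, *Eif3a* (1.79 and 1.42) and *Hnrnpa1* (1.36 and 0.86), with medians of 0.22 and 0.14, and none was called lower, nor placed lower by unadjusted p. The 76 mitochondrial ribosomal protein genes, which serve another ribosome, had 7 called higher and 10 lower in *Atf6a*-/- livers (median -0.12). In wild-type livers 5 of the 76 were called higher and 7 lower (median -0.04).

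Genes known to regulate or report on ribosome synthesis were measured beside them. The list of regulators holds activators, such as *Mtor* and *Rheb*, as well as inhibitors. Of 20 regulators of mTORC1 and of TOP mRNAs (21 listed), 6 were called higher and 2 lower in *Atf6a*-/- livers, and 5 higher and 1 lower in wild-type livers. For this list and the next, the shares of all genes were 13.1% higher and 8.21% lower in *Atf6a*-/- livers. In wild-type livers they were 8.92% and 6.9%. *Trib3*, a pseudokinase that dampens Akt signalling, had 6.30 and 5.10, *Sesn2*, an amino acid sensor that inhibits mTORC1, 1.74 in *Atf6a*-/- livers, and *Eif4ebp1*, the translational repressor that mTORC1 inactivates, 1.04 in wild-type livers. Of 8 genes tied to ribosomal stress and p53 (9 listed), 4 were called higher and 1 lower in *Atf6a*-/- livers, and 2 higher and 1 lower in wild-type livers. *Cdkn1a*, which encodes the cell cycle inhibitor p21, had 4.15 and 3.82, *Mdm2*, the ubiquitin ligase of p53, 1.17 in *Atf6a*-/- livers, and *Bbc3*, which encodes the pro-apoptotic protein PUMA, -1.29 in wild-type livers.

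**Figure D4:**
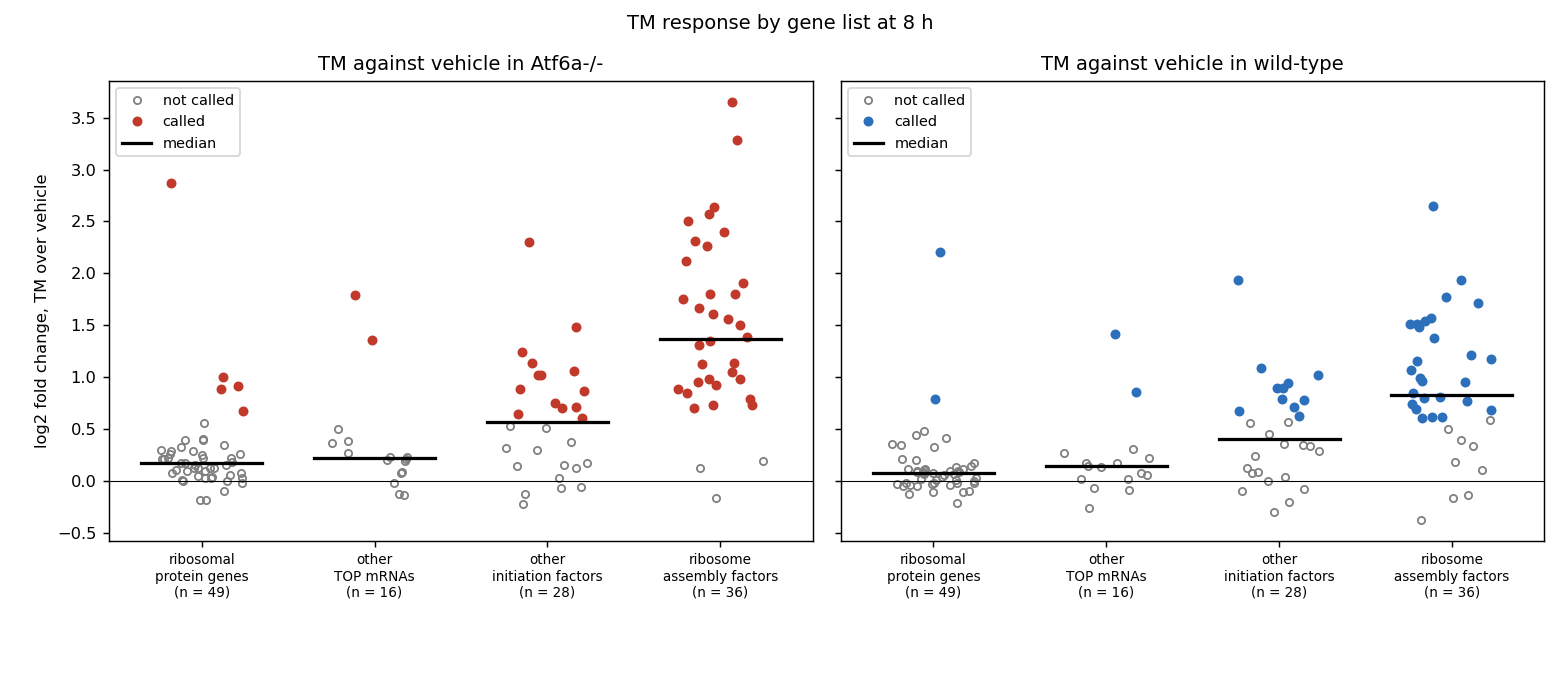
Log2 fold change of TM over vehicle (y axis) for each gene of 4 lists (x axis), with *Atf6a*-/- on the left and wild-type on the right; filled points are called and bars are medians. Ribosome assembly factors have medians of 1.37 and 0.83, against 0.17 and 0.08 for the ribosomal protein genes. The lists were not matched for signal level.

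Markers of hepatocytes and of other liver cells were read in the same comparison. Of all genes, 13.1% were called higher and 8.21% lower in *Atf6a*-/- livers, and 8.92% and 6.9% in wild-type livers. Of 11 hepatocyte markers, 2 were called higher and 2 lower in *Atf6a*-/- livers, with log2 values from -1.04 to 1.03. In wild-type livers 1 was called higher and none lower, though limma's unadjusted p placed 2 lower. All 11 Kupffer cell and macrophage markers had lower means with TM in both genotypes, by log2 values of -1.01 to -0.36 in *Atf6a*-/- livers, with 3 called, and of -0.56 to -0.22 in wild-type livers, with none called. Their mean level ran from 8.65 to 9.16 in *Atf6a*-/- TM livers, from 9.11 to 9.80 in *Atf6a*-/- vehicle livers, from 9.10 to 9.36 in wild-type TM livers and from 9.02 to 9.95 in wild-type vehicle livers. By limma's unadjusted p none of the 11 passed in wild-type livers. Stellate cell and fibroblast markers had medians of -0.31 in *Atf6a*-/- livers, with 1 of 10 called lower, and -0.65 in wild-type livers, with 2 called lower. Cycling cell markers had -0.28 and -0.58, with 1 and 3 of 8 called lower, and B and plasma cell markers -0.65 and -0.28, with 3 and 0 of 7 called lower, where 2 passed the unadjusted p in wild-type livers. T and NK cell markers had -0.28 and -0.30 with none of 9 called, 3 and 4 passing the unadjusted p in the downward direction, and sinusoidal endothelium -0.26 and -0.29, with 1 of 10 called higher in *Atf6a*-/- and 1 lower in wild-type livers. A mean over all arrays below the median of the array medians was found for 6 of the 8 cycling cell markers. The same held for 4 of the 9 T and NK cell markers and 1 of the 7 B and plasma cell markers. It held for none of the Kupffer cell and macrophage, stellate cell and fibroblast or sinusoidal endothelium markers. The part of any of these cell types in the ribosomal protein values was not tested.

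Genotype made no called difference to any ribosomal protein gene. Under TM, none of the 49 was called higher or lower in *Atf6a*-/- than in wild-type livers, where 2.89% of all genes were called higher and 1.53% lower. By limma's unadjusted p, 3 were higher and none lower, *Rpl12* (log2 difference 0.52), *Rps4l* (0.41) and *Rpl4* (0.18), with adjusted p of 0.27 to 0.333, and the t-test of the methods placed 1 higher before adjustment and 0 after it. The median difference was 0.10, positive for 46 of 49 genes, and the groups did not overlap, with *Atf6a*-/- higher, for 7 of 49 (14.3%, against 13.4% of all genes). The lowest difference was that of *Rpl27a* at -0.35 (adjusted p = 0.473). Under vehicle none was called in either direction, where 0% of all genes were called higher and 0% lower, the median was -0.001, and 24 of 49 values were positive. By unadjusted p only *Rpl22l1* passed there, at -0.78 (limma adjusted p = 1.00), the t-test placed none in either direction, and the highest value was that of *Rpl3l* at 0.22.

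The response to TM was also compared between genotypes, as the difference of the 2 log2 fold changes. None of the 49 was called in either direction, where 1.06% of all genes had a higher response in *Atf6a*-/- livers and 0.748% a lower one. *Rpl22l1* was the only one past limma's unadjusted p, with a difference of 1.05 (SE 0.40, limma adjusted p = 0.324), followed by *Rpl12* (0.66, adjusted p = 0.451), *Rps4l* (0.55) and *Rpl14* (0.39). The median was 0.10 and 43 of 49 values were positive. This comparison and the one under TM share their arrays with the responses in each genotype, so they are not independent of them. That *Rps4l* and *Rpl7l1* were called in *Atf6a*-/- livers alone is therefore no shown difference between genotypes.

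One array carried much of the genotype difference in the ribosomal protein genes. *Atf6a*-/- TM replicate 3 had the highest signal of all 12 arrays for 40 of the 49 genes, and its mean over them was 11.70, against 11.42 and 11.48 on the other *Atf6a*-/- TM arrays. The median deviation from the *Atf6a*-/- vehicle mean was 0.06, 0.13 and 0.29 on *Atf6a*-/- TM replicates 1, 2 and 3, and the median deviation from the wild-type vehicle mean was 0.03, 0.08 and 0.09 on the 3 wild-type TM arrays. Without that array the median difference under TM was 0.02, with 33 of 49 positive, and the median difference in response was 0.01, with 31 of 49 positive. The median response in *Atf6a*-/- livers was then 0.09, 4 genes were called (*Rpl22l1* was lost), and 6 in place of 11 passed the adjusted p alone. Among assembly factors, 9 were called higher under TM in *Atf6a*-/- than in wild-type livers with it, led by *Dkc1* (0.92, limma adjusted p = 0.00826) and *Pes1* (0.63, adjusted p = 0.00845), and 1 without it. Their median difference under TM changed less, from 0.54 with that array to 0.43 without it. The array's interquartile range was 3.67 on the log2 scale, the highest of a range from 3.32, and its 3′ minus 5′ signal was -0.01 for *Gapdh* (range -0.12 to 0.30) and 0.83 for actin (range 0.74 to 1.07). The part of these in its high values was not tested.

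**Figure D5:**
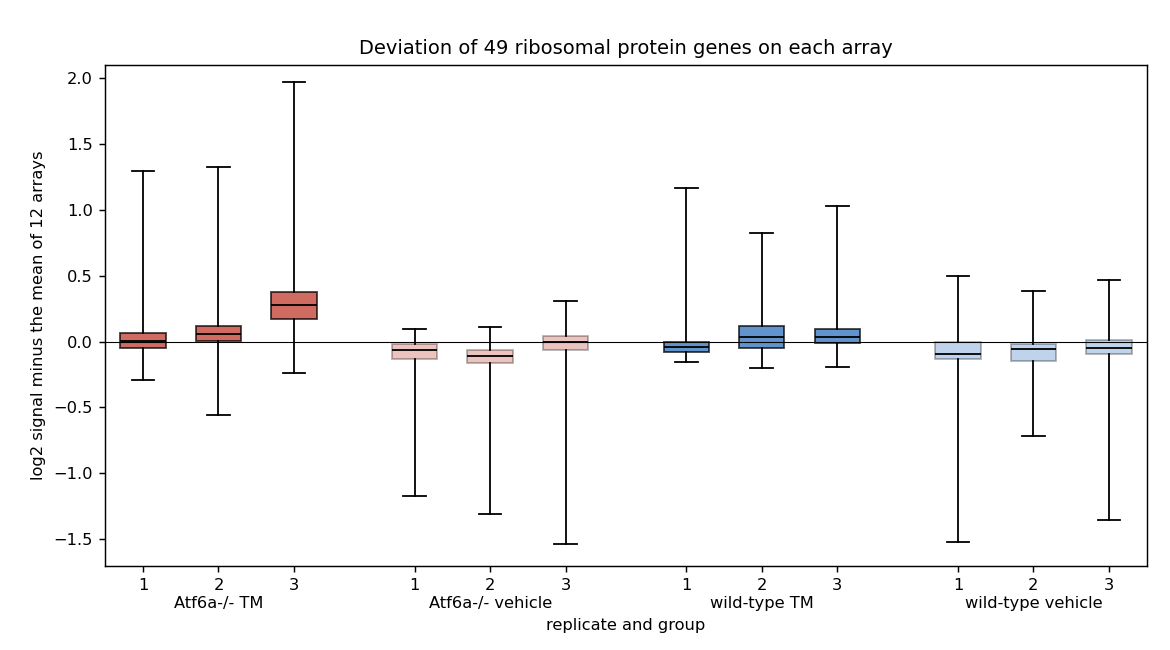
Log2 signal minus the gene's mean over 12 arrays (y axis) for the 49 ribosomal protein genes on each array (x axis); boxes span the quartiles, the line is the median and whiskers reach the extremes. *Atf6a*-/- TM replicate 3 has the highest box of the 12 arrays, and the wild-type TM and vehicle boxes lie near 0.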

How the data were processed

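RNA from 12 mouse livers (4 groups of 3 animals) was hybridised to Affymetrix mouse arrays, 1 per animal. The deposited values are log2 signals per probeset that the authors made with RMA; affy, RMA and limma are named in the submitters' processing notes, with no version given. The table held 45101 probesets; 64 controls were left out, and of the 45037 others, 34945 had 1 gene in the platform annotation, 932 several and 9160 none. Gene symbols are those of the annotation, and positions come from RefSeq (GRCm38.p6). No low-signal filter was applied.

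limma 3.58.1 in R 4.3.3 was fitted with 1 mean per group over all 12 arrays, 5 contrasts and Benjamini-Hochberg adjustment over 45037 probesets, with 8 residual degrees of freedom; the script was tested on simulated data. Each gene took its probeset of highest mean. No array pair was identical, and the number of arrays limits the precision.

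The members and lists were chosen with earlier results of these data known. Named were all called genes, the 4 of largest limma statistic per contrast and direction (given where they bear on a comparison), all paralogues, the stalk genes, Rpsa, Rps6, Rpl11, Rpl13a and Fau, and the 2 leading called genes of each other list. Alternatives were quantile and cyclic loess normalization, centring on Btf3 and Ppia (its brightest probeset also names Gm9234), other probeset rules, Y-linked signal as a covariate or its 4 arrays left out, a replicate block, array weights, each array left out, a trend and robust fit, other thresholds and the methods' t-test. The t-test was not run for the difference in response, nor was a fit on only the arrays of that contrast.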

Additional observations from a re-analysis of the deposited data

How the results depend on the processing

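The table gives no depth, and 3 animals per group limit the precision. No result with a call changed direction; the median under vehicle, -0.00117, was 0.00430 with cyclic loess and 0.0581 (39 of 49 positive) on centring to Btf3 and Ppia. Median responses were 0.328 in Atf6a-/- and 0.243 in wild-type livers without _s_at, _x_at and _a_at probesets, 0.0999 (36 positive) and 0.0409 (28 positive) on centring, and 0.208 and 0.134 with cyclic loess. In Atf6a-/- livers the 11 genes above an adjusted p alone became 17 with cyclic loess normalization, 4 with the adjusted t-test and 19 by unadjusted p; the 5 called became 8 without those probesets, 2 with the adjusted t-test, 11 with no fold limit and 2 with a 2-fold threshold. In wild-type livers the 5 became 3 on centring to Btf3 and Ppia, 11 with the unadjusted t-test, 2 with the adjusted one and 8 by unadjusted p; the 2 called became 1 with the adjusted t-test, 5 with no fold limit and 1 with a 2-fold threshold. By unadjusted p and 1.5-fold, 1 gene was higher in the difference in response and 1 lower in Atf6a-/- under vehicle, Rpl22l1 in both cases.

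Leaving out each array in turn gave medians of 0.0901 to 0.215 (response in Atf6a-/-), 0.0382 to 0.0960 (response in wild-type), 0.0194 to 0.171 (Atf6a-/- against wild-type under TM), -0.0366 to 0.0286 (under vehicle) and 0.00864 to 0.151 (difference in response). Genes past the adjusted p alone numbered 6 to 14 in Atf6a-/- livers (lowest without Atf6a-/- TM replicate 3, and 7 without Atf6a-/- vehicle replicate 1) and 1 to 6 in wild-type livers (1 when TM replicate 2 and 2 when vehicle replicate 1 or 3 of the wild-type mice was left out); called genes numbered 4 to 6 and 1 to 4 (4 without wild-type vehicle replicate 2). With the animal number as a replicate block, 5 and 2 were called, and 13 and 4 passed the adjusted p alone. The numbers did not pair the animals: deviations of same-numbered arrays correlated by -0.543 to 0.460, above 0.1 in 6 of 18 pairs, and 3 of 12 arrays correlated best with their own number.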
